A study of Homo sapiens with 12 samples.

Results

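Genes of hypoxia and glycolysis were examined in HT29 cells, a human colorectal cancer line with a mutant p53, after knockdown of the nuclear receptor LRH-1. The set held 10 genes, namely ADM, CA9, LDHA, BNIP3, ENO1, ALDOA, HK2, GAPDH, DDIT4 and EGLN3, and was defined by gene symbol. Of these, 9 had a probe in the values used here, with 16 probes among the 16381 of the table. CA9, a carbonic anhydrase of the cell surface, had no named probe and was not measured here. The groups were cells transfected with siLRH-1 #1, cells transfected with siLRH-1 #2, and control cells transfected with siLUC, an siRNA against luciferase, with 4 arrays each. All groups were transfected with RNAiMax and a 5 nM siRNA, and RNA was taken after 24 h, so the control cells had also been exposed to transfection reagent and to a double-stranded RNA. No sample was labelled as kept at low oxygen. All cells came from 1 line. NR5A2, the gene of LRH-1, was not among the genes read here. The study's own microarray analysis lists NR5A2 among the genes lowered by both LRH-1 siRNAs in HT29 cells. That fall was not re-examined.

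Signals are log2 probe intensities, quantile-normalized, from HumanHT-12 v4 BeadChips. Array medians lay between 6.56 and 6.57, and a probe below them is called dim. A change is a difference of group mean log2 signals, given ± its standard error from limma, and a gene is called at an adjusted p under 0.05 over all probes. For a gene with several probes the brightest was used and the others are given beside it. Each LRH-1 siRNA was compared with the same 4 siLUC arrays, so their changes are not independent. The cells expressed markers of colon epithelium: 9 of the 11 listed were measured and all 9 lay above the array medians, with EPCAM at 13.44 and KRT8 at 12.52. CEACAM5 was the called marker among those of the colon, with changes of -0.22 with each LRH-1 siRNA. Of 11 markers of fibroblasts, endothelium and leukocytes, 4 had a named probe, and 1 of them, CD68 at 7.65, lay above the array medians. One array stood apart: 50 probes were 0.5 or more above all other arrays in siLRH-1 #2 replicate 2, and at most 1 was in any other array.

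Cells read oxygen through the alpha subunits of the hypoxia-inducible factors (HIF). With oxygen present, prolyl hydroxylases of the EGLN family mark these subunits for destruction by the ubiquitin ligase that contains VHL. When oxygen is short, they accumulate, pair with ARNT and bind a short core motif near genes for glucose use, blood vessel signals and survival. Many tumour cells run glycolysis at a high rate even with oxygen present, and most of the glycolytic enzymes examined here are also HIF targets.

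Promoter windows of the members that were called in any comparison are shown first, since the core bound by HIF is a letter pattern that can be read in them. Each window runs from 250 bases before to 50 bases after a start site of RefSeq (GRCh38.p14), 5′ to 3′ on the strand of the gene. Capitals mark the HIF core, ACGTG or GCGTG, on either strand (CACGT or CACGC where it lies on the other strand). HK2 has 2 annotated start sites.
ADM, chr11:10304823-10305122, plus strand: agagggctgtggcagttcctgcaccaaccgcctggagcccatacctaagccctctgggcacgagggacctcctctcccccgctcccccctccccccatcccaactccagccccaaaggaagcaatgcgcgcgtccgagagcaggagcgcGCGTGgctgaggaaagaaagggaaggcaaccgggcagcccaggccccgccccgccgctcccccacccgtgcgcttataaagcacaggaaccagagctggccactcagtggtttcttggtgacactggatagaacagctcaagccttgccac
DDIT4, chr10:72273674-72273973, plus strand: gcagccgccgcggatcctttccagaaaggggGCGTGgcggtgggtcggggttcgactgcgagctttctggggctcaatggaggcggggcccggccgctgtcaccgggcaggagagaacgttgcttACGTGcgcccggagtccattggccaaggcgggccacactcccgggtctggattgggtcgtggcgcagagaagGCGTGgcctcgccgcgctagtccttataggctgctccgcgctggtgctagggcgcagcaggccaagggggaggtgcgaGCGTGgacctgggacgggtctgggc
HK2 start 1, chr2:74833877-74834176, plus strand: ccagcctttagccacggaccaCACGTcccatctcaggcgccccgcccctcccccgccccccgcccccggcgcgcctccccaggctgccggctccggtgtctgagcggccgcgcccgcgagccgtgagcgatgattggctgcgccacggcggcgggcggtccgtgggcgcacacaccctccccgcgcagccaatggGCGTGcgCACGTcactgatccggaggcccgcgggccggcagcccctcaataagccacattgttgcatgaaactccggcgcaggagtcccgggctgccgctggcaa
HK2 start 2, chr2:74834920-74835219, plus strand: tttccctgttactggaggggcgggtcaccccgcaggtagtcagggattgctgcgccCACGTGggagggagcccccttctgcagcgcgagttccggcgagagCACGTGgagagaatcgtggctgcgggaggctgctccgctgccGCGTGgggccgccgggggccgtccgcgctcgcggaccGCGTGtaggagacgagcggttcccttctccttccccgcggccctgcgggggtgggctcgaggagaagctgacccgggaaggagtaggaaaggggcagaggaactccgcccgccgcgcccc
EGLN3, chr14:33951025-33951324, minus strand: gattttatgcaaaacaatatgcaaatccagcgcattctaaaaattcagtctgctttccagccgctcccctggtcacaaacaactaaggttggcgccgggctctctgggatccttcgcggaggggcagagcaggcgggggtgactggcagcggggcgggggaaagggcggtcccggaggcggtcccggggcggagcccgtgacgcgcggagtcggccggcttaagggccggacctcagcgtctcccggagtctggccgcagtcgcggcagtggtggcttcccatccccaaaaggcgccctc

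The ADM window held 1 core, at positions -101 to -97 from the start site, and the DDIT4 window held 4, of which the nearest before the start site lay at -53 to -49. The HK2 windows held 3 and 6 matches. In the second of them, 2 palindromes of the letters CACGTG, the E-box, gave 4 of the 6, since the core is read there on both strands. EGLN3 had no match in its window, which says only that these letters are not there. Across the 14 windows of all 10 members, 13 held at least 1 core, and 48.4% of the 35116 windows of this length in the table did. The members had been chosen as hypoxia and glycolysis genes, so this share is a description. A shortened form of the LRH-1 motif, searched as AAGGTCA or AAGGCCA on either strand, was in 0 of the 14 windows and in 8.82% of all windows. The study gives a longer consensus whose last base is any purine. Forms ending in G and the full consensus were not searched. A match is not a binding site, and binding was not measured in these samples.

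**Figure D1:**
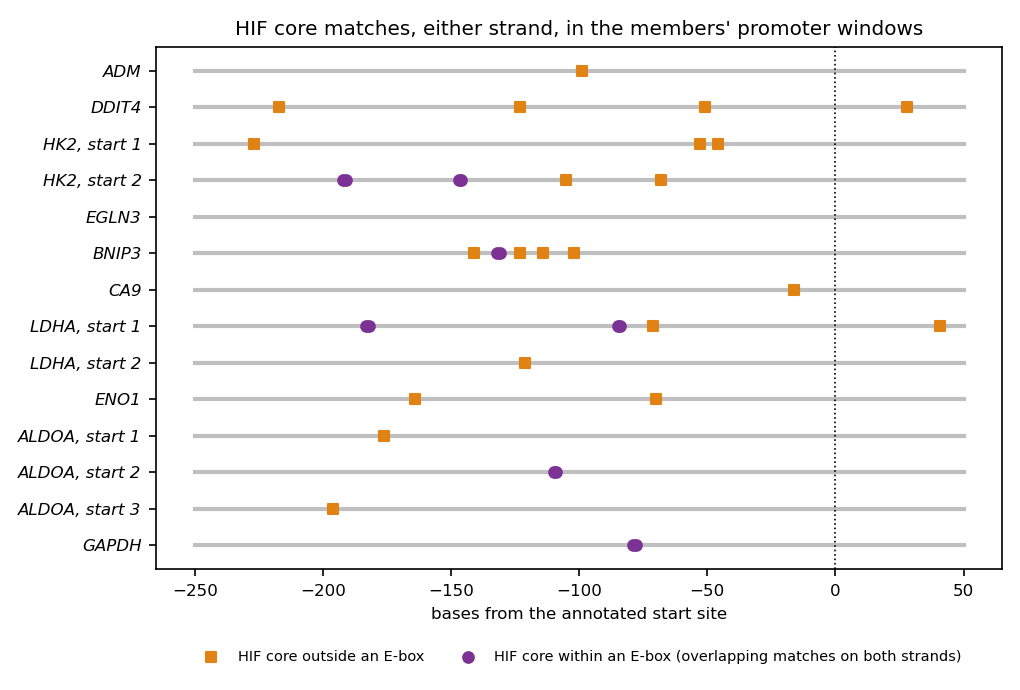
Positions of the HIF core in the promoter windows of the members (grey bars, 250 bases before to 50 bases after each annotated start site, x axis in bases from the start site). Squares are cores outside an E-box and circles are cores within one, where matches on both strands overlap. All windows except that of EGLN3 hold at least 1 core.

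Against siLUC, 2 of the 9 measured members were called with siLRH-1 #1 and the same 2 with siLRH-1 #2. ADM rose and DDIT4 fell with both. In bulk RNA such as this, fewer cells of a kind and less RNA per cell cannot be told apart. Over all 7331 named genes, 10.2% were called with siLRH-1 #1, 10.0% with siLRH-1 #2, and 2.70% with both in the same direction (1.84% higher and 0.859% lower). Between the LRH-1 siRNAs, 2 members were called, HK2 and EGLN3, both higher with siLRH-1 #1, and 14.7% of named genes were called in that comparison, 6.97% higher and 7.73% lower. The arrays of a group lay wholly apart from those of siLUC for 2 members with siLRH-1 #1 and for 3 with siLRH-1 #2, where 18.6% and 17.8% of named genes did. The member added with siLRH-1 #2 was EGLN3, whose lowest siLUC array was at 6.243 and highest siLRH-1 #2 array at 6.240. The median change over the 9 members was 0.07 with siLRH-1 #1 and -0.06 with siLRH-1 #2, and the median over all named genes was 0.01 with each.

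**Figure D2:**
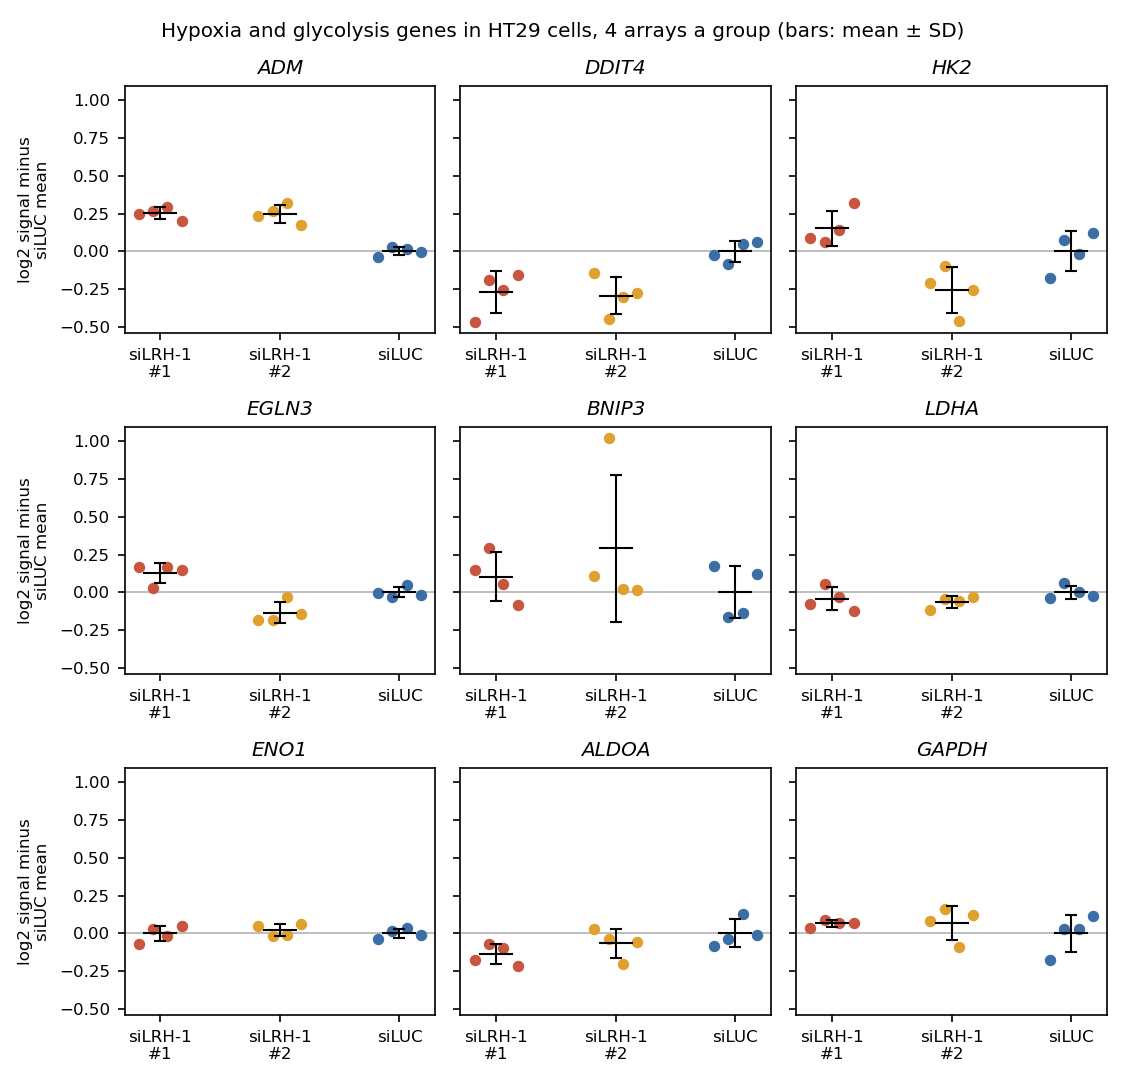
Log2 signal of the brightest probe of each measured member, minus the mean of the 4 siLUC arrays, by group. Points are arrays, from replicate 1 at the left to replicate 4 at the right, and bars are the mean ± SD. The ADM and DDIT4 arrays of both LRH-1 siRNAs lie apart from siLUC, and 1 BNIP3 array of siLRH-1 #2 lies far above the rest.

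ADM encodes adrenomedullin, a secreted peptide that dilates blood vessels and is induced by low oxygen. Its probe was ILMN_1708934. The signals were 9.55, 9.58, 9.60 and 9.51 with siLRH-1 #1, 9.54, 9.58, 9.63 and 9.49 with siLRH-1 #2, and 9.27, 9.34, 9.32 and 9.30 with siLUC. All 8 arrays of the LRH-1 siRNAs lay above all 4 siLUC arrays, and in 5.67% of named genes all 8 lay on 1 side of the siLUC arrays. The rise was 1.19-fold with each siRNA (0.25 ± 0.06 log2, adjusted p = 0.00562 with siLRH-1 #1, and 0.25 ± 0.06 log2, adjusted p = 0.00661 with siLRH-1 #2). Between the siRNAs, ADM differed by less than the spread, at 0.00 log2 (adjusted p = 0.982) and a 95% interval of -0.11 to 0.12. Both rises were still called on leaving out any single array. When every array was set relative to its GAPDH signal, neither was called, with 0.19 for siLRH-1 #1 (adjusted p = 0.454) and 0.18 for siLRH-1 #2 (adjusted p = 0.431). GAPDH had an SD of 0.12 over the siLUC arrays, where ADM had an SD of 0.03.

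DDIT4 encodes REDD1, which restrains the growth kinase mTORC1 and is induced by low oxygen and other stresses. Its probe, ILMN_1661599, gave signals of 6.79, 7.06, 7.00 and 7.09 with siLRH-1 #1, 7.11, 6.81, 6.95 and 6.97 with siLRH-1 #2, and 7.22, 7.16, 7.30 and 7.31 with siLUC. Every array of the LRH-1 siRNAs lay below every siLUC array, with siLRH-1 #1 replicate 1 and siLRH-1 #2 replicate 2 the lowest. As given for ADM, 5.67% of named genes had all 8 arrays on 1 side. The fall was 1.20-fold with siLRH-1 #1 (-0.27 ± 0.07 log2, adjusted p = 0.0294) and 1.22-fold with siLRH-1 #2 (-0.29 ± 0.07 log2, adjusted p = 0.0165). The difference of siLRH-1 #1 minus siLRH-1 #2 was 0.03, with a 95% interval of -0.13 to 0.18. Several calls were lost on leaving out 1 array, mostly with changes of about the same size. With siLRH-1 #1, the adjusted p became 0.0551, 0.0784 and 0.0935 on leaving out siLUC replicates 1, 3 and 4 in turn, and 0.117 and 0.0584 on leaving out siLRH-1 #1 replicates 1 and 3. The changes were then -0.27, -0.25, -0.25, -0.20 and -0.27, in the same order. With siLRH-1 #2, it became 0.0535 and 0.0519 on leaving out siLUC replicates 3 and 4, and 0.0611 on leaving out siLRH-1 #2 replicate 2, with changes of -0.28, -0.27 and -0.24. Neither was called when the spread was not moderated (adjusted p = 0.105 with siLRH-1 #1 and 0.0742 with siLRH-1 #2).

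Around DDIT4, genes on its pathway and genes of the stress response that also acts on it were read. Of 11 listed regulators of mTORC1, 3 were measured, MTOR, AKT1S1 and DEPTOR, the last on a dim probe, and 0 were called in limma or had an unadjusted p under 0.05 with either siRNA. Of 6 listed stress factors, 4 were measured. ATF4, a transcription factor that induces DDIT4 under stress, had changes of -0.11 with siLRH-1 #1 and -0.14 with siLRH-1 #2 and was not called. ASNS had changes of 0.15 with siLRH-1 #1 (adjusted p = 0.154) and 0.02 with siLRH-1 #2. ATF3 had changes of 0.05 with siLRH-1 #1 and -0.03 with siLRH-1 #2, and neither gene was called. DDIT3, the stress factor CHOP, rose 1.24-fold with siLRH-1 #2 (0.31 ± 0.07 log2, adjusted p = 0.0101) and had a change of -0.08 with siLRH-1 #1, and the difference of siLRH-1 #1 minus siLRH-1 #2 was -0.38 (adjusted p = 0.000898). The rise of DDIT3 with siLRH-1 #2 missed the threshold relative to GAPDH (adjusted p = 0.221) and when the spread was not moderated (adjusted p = 0.0542).

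HK2 encodes hexokinase 2, which traps glucose in the cell as the opening step of glycolysis. Its brightest probe, ILMN_1723486, gave 9.25, 9.22, 9.30 and 9.48 with siLRH-1 #1, 8.95, 9.06, 8.70 and 8.90 with siLRH-1 #2, and 8.98, 9.24, 9.14 and 9.28 with siLUC. The siLRH-1 #1 arrays lay above all siLRH-1 #2 arrays, and the siLUC arrays overlapped both groups. Between the siRNAs, 20.4% of named genes were separated in this way. The signal was 1.33 times as high with siLRH-1 #1 as with siLRH-1 #2 (0.41 ± 0.08 log2, adjusted p = 0.00133). Its other probe, ILMN_2156172, gave 8.37, 8.39, 8.34 and 8.29 with siLRH-1 #1, 8.15, 8.19, 8.12 and 7.91 with siLRH-1 #2, and 8.26, 8.21, 8.27 and 8.12 with siLUC, and also differed between the siRNAs (0.25 ± 0.07 log2, adjusted p = 0.0131). Leaving out siLRH-1 #2 replicate 4 ended the call of this other probe (0.19 log2, adjusted p = 0.0652), as did setting arrays relative to GAPDH (adjusted p = 0.168).

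Neither change of HK2 against siLUC was called. For the brightest probe, siLRH-1 #1 gave 0.15 ± 0.08 (adjusted p = 0.326) and siLRH-1 #2 gave -0.26 ± 0.08 (adjusted p = 0.0571). The value with siLRH-1 #2 lay close to the threshold and was called under 8 of 22 other settings, among them leaving out siLUC replicate 1 (-0.32 log2, adjusted p = 0.0233), siLRH-1 #2 replicate 2 (-0.31 log2, adjusted p = 0.0248) or siLRH-1 #1 replicate 4, which enters through the shared spread (-0.26 log2, adjusted p = 0.0494). The other probe had changes of 0.13 with siLRH-1 #1 (adjusted p = 0.292) and -0.12 with siLRH-1 #2 (adjusted p = 0.315). Both probes had positive values with siLRH-1 #1 and negative values with siLRH-1 #2.

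EGLN3 encodes a prolyl hydroxylase that marks HIF alpha subunits for destruction and is itself induced by HIF. Its probe, ILMN_1667626, was dim, with signals of 6.44, 6.30, 6.44 and 6.42 with siLRH-1 #1, 6.09, 6.09, 6.24 and 6.13 with siLRH-1 #2, and 6.27, 6.24, 6.32 and 6.26 with siLUC. All siLRH-1 #1 arrays lay above all siLRH-1 #2 arrays, and the siLUC and siLRH-1 #1 arrays overlapped. The siLUC arrays lay above those of siLRH-1 #2 only narrowly, with the lowest at 6.243 and the highest of siLRH-1 #2 at 6.240. Of named genes, 20.4% were separated between the siRNAs and 17.8% between siLRH-1 #2 and siLUC. The EGLN3 signal was 1.20 times as high with siLRH-1 #1 as with siLRH-1 #2 (0.26 ± 0.06 log2, adjusted p = 0.00411). Against siLUC neither change was called, with 0.13 ± 0.06 for siLRH-1 #1 (adjusted p = 0.240) and -0.14 ± 0.06 for siLRH-1 #2 (adjusted p = 0.190). Relative to GAPDH the difference was as large, at 0.26, and was not called (adjusted p = 0.142).

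BNIP3 encodes a mitochondrial protein of the BCL2 family that directs mitochondria to autophagy when oxygen is short. Its probe, ILMN_1724658, was dim, at 6.52, 6.67, 6.43 and 6.29 with siLRH-1 #1, 6.48, 7.39, 6.40 and 6.39 with siLRH-1 #2, and 6.54, 6.21, 6.24 and 6.49 with siLUC. The groups overlapped, and siLRH-1 #2 replicate 2 stood 0.72 above the next highest of the 12 arrays. BNIP3 was the only member among the 50 probes raised in that array. Its change with siLRH-1 #2 was 0.29 (± 0.15, adjusted p = 0.308) with that array and 0.05 (± 0.09, adjusted p = 0.841) without it. With siLRH-1 #1 the change was 0.10 (± 0.15, adjusted p = 0.796). Of 10 listed genes of mitophagy and of the BCL2 family around BNIP3, 6 were measured and 0 were called in limma with either siRNA, although 2 had an unadjusted p under 0.05 with each.

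The other glycolytic enzymes had small values. For LDHA, ENO1, ALDOA and GAPDH, 10 probes had changes between -0.14 and 0.10 with siLRH-1 #1 and between -0.10 and 0.07 with siLRH-1 #2. None of the 10 was called in limma, with or without moderation of the spread, and 1 with siLRH-1 #1 and 0 with siLRH-1 #2 had an unadjusted p under 0.05. The 95% intervals of these probes reached at most a 1.21-fold change with siLRH-1 #1 and a 1.18-fold change with siLRH-1 #2. A call that was not made does not show that the levels were equal, and the intervals give the sizes that the 4 arrays a group still allow.

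ENO1 encodes enolase 1, which makes phosphoenolpyruvate. Its probe, ILMN_1710756, gave signals of 13.88, 13.98, 13.93 and 13.99 with siLRH-1 #1, 13.99, 13.93, 13.94 and 14.00 with siLRH-1 #2, and 13.91, 13.96, 13.98 and 13.93 with siLUC. All 3 groups overlapped, and the 95% intervals were -0.11 to 0.11 with siLRH-1 #1 and -0.09 to 0.14 with siLRH-1 #2. The probe ranked above 99.3% of all probes in brightness.

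LDHA encodes lactate dehydrogenase A, which turns pyruvate into lactate. Its brightest probe, ILMN_3249748, gave 14.05, 14.18, 14.10 and 14.00 with siLRH-1 #1, 14.00, 14.08, 14.06 and 14.10 with siLRH-1 #2, and 14.08, 14.19, 14.12 and 14.10 with siLUC. The groups overlapped, with changes of -0.04 ± 0.06 with siLRH-1 #1 and -0.06 ± 0.06 with siLRH-1 #2. For the other 2 probes, siLRH-1 #1 gave 0.05 and 0.10 while siLRH-1 #2 gave 0.02 and 0.07, so the sign was not shared among the probes.

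ALDOA encodes aldolase A, which splits fructose 1,6-bisphosphate. Its brightest probe, ILMN_1736700, gave 12.71, 12.81, 12.78 and 12.67 with siLRH-1 #1, 12.91, 12.85, 12.68 and 12.82 with siLRH-1 #2, and 12.79, 12.85, 13.01 and 12.87 with siLUC. For this probe, siLRH-1 #1 gave -0.14 ± 0.07 (unadjusted p = 0.046 and adjusted p = 0.257 in limma) and siLRH-1 #2 gave -0.07 ± 0.07 (adjusted p = 0.643). All 3 ALDOA probes had negative values with both siRNAs, the smallest being -0.04, and none was called. The dimmest of them, at a mean of 6.25, lay below the array medians.

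GAPDH encodes glyceraldehyde-3-phosphate dehydrogenase and was the reference gene of the real-time RT-PCR in the study, so its stability on the arrays was read probe by probe. The brightest probe, ILMN_2038778, gave 13.58, 13.63, 13.61 and 13.61 with siLRH-1 #1, 13.62, 13.71, 13.45 and 13.66 with siLRH-1 #2, and 13.37, 13.57, 13.57 and 13.65 with siLUC. Its change was 0.07 with siLRH-1 #1 (95% interval -0.08 to 0.21) and 0.07 with siLRH-1 #2 (95% interval -0.07 to 0.21). For the other probes, siLRH-1 #1 gave 0.01 and -0.09 while siLRH-1 #2 gave 0.04 and -0.04, so the GAPDH probes also differed in sign. Such housekeeping enzymes have processed pseudogenes, and which copies each probe detects was not tested.

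**Figure D3:**
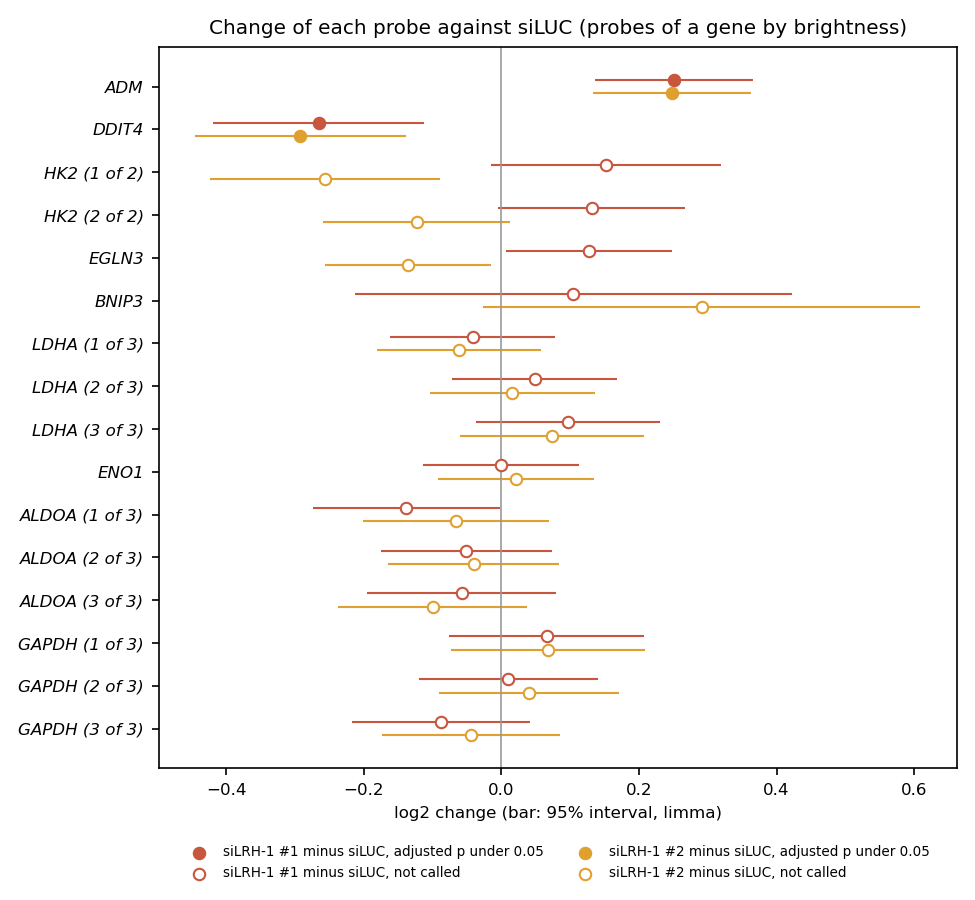
Log2 change of all 16 member probes against siLUC (x axis), with siLRH-1 #1 above siLRH-1 #2 in each row. Points are limma estimates, bars are 95% intervals, filled points have an adjusted p under 0.05, and the probes of a gene run from brightest to dimmest. The filled points are those of ADM and DDIT4, and the 10 probes of LDHA, ENO1, ALDOA and GAPDH lie between -0.14 and 0.10.

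The rest of the pathway was read from lists of 111 other genes, of which 49 were measured. Of the 49, 3 were called higher and 4 lower with siLRH-1 #1, and 4 higher and 2 lower with siLRH-1 #2. The shares over all named genes were 5.05% higher and 5.17% lower with siLRH-1 #1, and 5.14% higher and 4.88% lower with siLRH-1 #2, so the counts were near the background. Of all probes called, 46.0% were higher with siLRH-1 #1 and 46.5% with siLRH-1 #2, and relative to GAPDH 16.5% and 21.5% were. The median change of the 49 was 0.00 with siLRH-1 #1 and 0.03 with siLRH-1 #2. Between the siRNAs, 2 of the 49 were called higher and 5 lower with siLRH-1 #1. Over all named genes, 14.7% were called in that comparison, 6.97% higher and 7.73% lower, so this count was near the background too.

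Among 11 measured HIF subunits and regulators, 3 were called with siLRH-1 #1 (HIF1A, EGLN2 and EP300) and 1 with siLRH-1 #2 (EPAS1). Of all named genes, 10.2% were called with siLRH-1 #1 and 10.0% with siLRH-1 #2. HIF1A encodes the HIF-1 alpha subunit. Its brightest probe gave 7.25, 7.22, 7.33 and 7.07 with siLRH-1 #1, 8.24, 7.87, 7.93 and 7.92 with siLRH-1 #2, and 8.06, 7.73, 7.94 and 7.84 with siLUC. The siLRH-1 #1 arrays lay below all others, while those of siLRH-1 #2 and siLUC overlapped. Of named genes, 18.6% were separated between siLRH-1 #1 and siLUC and 20.4% between the LRH-1 siRNAs. HIF1A fell 1.60-fold with siLRH-1 #1 (-0.68 ± 0.08 log2, adjusted p = 1.06e-05) while its change with siLRH-1 #2 was 0.10 (adjusted p = 0.589), and siLRH-1 #1 minus siLRH-1 #2 was -0.77 (± 0.08, adjusted p = 1.15e-06). Its other 2 probes also fell with siLRH-1 #1, by 0.82 and 0.31 on the log2 scale (adjusted p = 2.09e-06 and 0.0102), and were not called with siLRH-1 #2.

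EGLN2 encodes another HIF prolyl hydroxylase and had a similar pattern. Its brightest probe gave 11.38, 11.31, 11.39 and 11.24 with siLRH-1 #1, 12.10, 11.96, 11.93 and 12.17 with siLRH-1 #2, and 11.99, 11.83, 11.80 and 11.96 with siLUC. It fell 1.48-fold with siLRH-1 #1 (-0.57 ± 0.07 log2, adjusted p = 6.6e-06) while its change with siLRH-1 #2 was 0.14 (adjusted p = 0.238). The difference of siLRH-1 #1 minus siLRH-1 #2 was -0.71 (± 0.07, adjusted p = 2.4e-07). The other EGLN2 probe fell by 0.54 with siLRH-1 #1 (adjusted p = 0.000375). The related enzyme EGLN1 had changes of -0.04 with siLRH-1 #1 and 0.12 with siLRH-1 #2 and was not called.

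EPAS1 encodes HIF-2 alpha and was lowest with siLRH-1 #2. It gave 9.94, 9.77, 9.82 and 9.99 with siLRH-1 #1, 9.40, 9.35, 9.53 and 9.45 with siLRH-1 #2, and 9.67, 9.79, 9.75 and 9.72 with siLUC. EPAS1 fell 1.23-fold with siLRH-1 #2 (-0.30 ± 0.06 log2, adjusted p = 0.00415), while its change with siLRH-1 #1 was 0.15 (adjusted p = 0.211), and the siRNAs differed by 0.45 (± 0.06, adjusted p = 3.7e-05). EP300, a coactivator of HIF, rose 1.17-fold with siLRH-1 #1 (0.23 ± 0.06 log2, adjusted p = 0.0221), and was not called relative to GAPDH (adjusted p = 0.548). Leaving out single arrays also ended this call, at adjusted p = 0.0760 and 0.0519 for siLUC replicates 2 and 4 and 0.0556 and 0.108 for siLRH-1 #1 replicates 1 and 4. The HIF partner ARNT, on a dim probe, and the asparagine hydroxylase HIF1AN were not called with either siRNA.

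Of 14 other measured genes known to be induced by low oxygen, siLRH-1 #1 gave 2 called higher and 2 called lower, and siLRH-1 #2 gave 2 called higher and 1 called lower. Over all named genes, 5.05% were called higher and 5.17% lower with siLRH-1 #1, and 5.14% higher and 4.88% lower with siLRH-1 #2. ERO1A, an oxidase of the endoplasmic reticulum, rose with both. Its signals were 8.62, 8.69, 8.73 and 8.78 with siLRH-1 #1, 8.76, 8.68, 8.81 and 8.91 with siLRH-1 #2, and 7.87, 8.09, 8.08 and 7.88 with siLUC, with no overlap of either siRNA with siLUC. The rise of ERO1A was 1.65-fold with siLRH-1 #1 (0.73 ± 0.07 log2, adjusted p = 3.84e-07) and 1.75-fold with siLRH-1 #2 (0.81 ± 0.07 log2, adjusted p = 7.51e-08). JMJD6, an oxygen-dependent hydroxylase, fell 1.21-fold with siLRH-1 #1 (-0.27 ± 0.07 log2, adjusted p = 0.0121) and 1.19-fold with siLRH-1 #2 (-0.25 ± 0.07 log2, adjusted p = 0.0190). JMJD6 was not called with siLRH-1 #1 once replicate 4 of that siRNA was left out (adjusted p = 0.0709), nor with siLRH-1 #2 once replicate 4 of siLUC or of siLRH-1 #2 was (adjusted p = 0.0533 and 0.0701).

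KDM3A, a histone demethylase, fell 1.31-fold with siLRH-1 #1 (-0.38 ± 0.06 log2, adjusted p = 0.000463) and had a change of 0.04 with siLRH-1 #2, and the siRNAs differed by -0.42 (adjusted p = 1.0e-04). INSIG2, which restrains cholesterol synthesis, rose 1.30-fold with siLRH-1 #1 (0.38 ± 0.06 log2, adjusted p = 0.000400), and its change of 0.21 with siLRH-1 #2 was not called (adjusted p = 0.0520) but was under 5 of 22 other settings, among them leaving out siLUC replicate 4 (adjusted p = 0.0446). BHLHE40, a transcription factor of the cell clock, rose 1.14-fold with siLRH-1 #2 (0.19 ± 0.06 log2, adjusted p = 0.0360), and had a change of 0.18 with siLRH-1 #1 (adjusted p = 0.0515), called under 7 of 22 other settings (adjusted p = 0.0139 to 0.0466). Its call with siLRH-1 #2 was lost under 11 of 22 other settings, among them leaving out each siLUC array (adjusted p = 0.0641 to 0.0933) and each siLRH-1 #2 array (adjusted p = 0.0503 to 0.126). Without siLRH-1 #2 replicate 2, this list held 3 genes called higher for siLRH-1 #1 and 1 for siLRH-1 #2. The remaining genes of the list, among them BNIP3L, a relative of BNIP3, CA12, a relative of CA9, ANKRD37 and FAM162A, were not called with either siRNA.

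**Figure D4:**
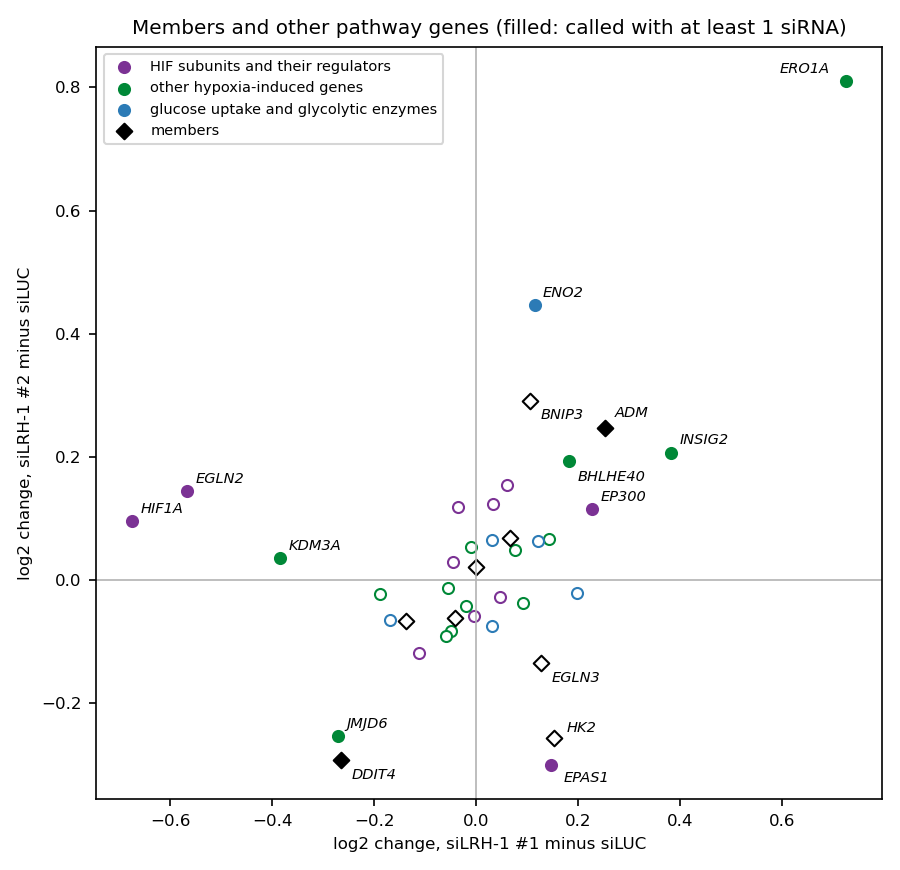
Log2 change with siLRH-1 #1 (x axis) and with siLRH-1 #2 (y axis), each minus siLUC, for the members and for other genes of 3 lists. Each point is a gene by its brightest probe, and filled points were called with at least 1 siRNA. The axes share the siLUC arrays. HIF1A, EGLN2 and KDM3A lie to the left near 0 on the y axis, EPAS1 lies below 0, and ERO1A lies at the upper right.

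Of 18 listed genes of glucose uptake and glycolysis outside the members, 6 were measured. ENO2, another enolase, rose 1.36-fold with siLRH-1 #2 (0.45 ± 0.08 log2, adjusted p = 0.00120) and had a change of 0.11 with siLRH-1 #1. The ENO2 probe was dim, with signals of 6.12, 6.20, 6.03 and 6.16 with siLRH-1 #1, 6.49, 6.72, 6.27 and 6.35 with siLRH-1 #2, and 6.02, 5.91, 5.95 and 6.17 with siLUC. Between the siRNAs, siLRH-1 #1 minus siLRH-1 #2, the value was -0.33 (± 0.08, adjusted p = 0.0100) and missed the threshold when the spread was not moderated (adjusted p = 0.0762). PFKP, a phosphofructokinase, had a difference of 0.22 for siLRH-1 #1 minus siLRH-1 #2 (± 0.06, adjusted p = 0.0323) on a dim probe. PFKP lost this call under 7 of 21 other settings, with adjusted p up to 0.309. The call ended on leaving out siLRH-1 #1 replicate 1 (adjusted p = 0.0530) or 4 (adjusted p = 0.149), and siLRH-1 #2 replicate 1 (adjusted p = 0.110) or 4 (adjusted p = 0.0743). HK1, GPI, ALDOC and LDHB, which encode other enzymes of the route, were not called. Of 10 listed genes for the entry of pyruvate into mitochondria, 5 were measured and 0 were called in limma or had an unadjusted p under 0.05 with either siRNA. The listed genes of the pentose phosphate pathway and the adrenomedullin receptors had 0 measured members.

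Among the members DDIT4 had the largest change with each siRNA, by a small margin. With siLRH-1 #1 it stood at -0.27, beside 0.25 for ADM, which led on leaving out siLUC replicate 3 or 4 or siLRH-1 #1 replicate 1. With siLRH-1 #2 it stood at -0.29, beside 0.29 for BNIP3, and BNIP3 led under 7 and HK2 under 1 of 22 other settings. The named probes most like it over the 12 arrays were looked up. These were H2BC21, a histone gene (Pearson r = 0.91), IQCB1 (r = 0.89) and MANBAL (r = 0.89), among 9755 other named probes. The points are arrays of the same 3 groups, so the likeness includes the group differences. The array that stood apart, siLRH-1 #2 replicate 2, was among the 2 lowest for DDIT4. It gave 6.61 for H2BC21, against 6.75 to 6.99 in the other 11 arrays, and 5.93 for MANBAL, against 6.01 to 6.25. For IQCB1 it gave 8.15, within the range of 8.03 to 8.51 of the others. The part of this array in the likeness was not tested. IQCB1 fell by 0.31 with siLRH-1 #1 (adjusted p = 0.00456) and by 0.31 with siLRH-1 #2 (adjusted p = 0.00489). H2BC21 had changes of -0.17 with siLRH-1 #1 (adjusted p = 0.0925) and -0.22 with siLRH-1 #2 (adjusted p = 0.0209), and MANBAL had changes of -0.15 with siLRH-1 #1 and -0.14 with siLRH-1 #2 on a dim probe and was not called.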

How the data were processed

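Total RNA of 12 HT29 cultures, described as biological replicates, was hybridised to Illumina BeadChips. The authors pre-processed the images in GenomeStudio, removed probes with a detection p-value over 0.05 in all samples, and deposited log2 signals that were quantile-normalized in Partek, with versions not given in the sources used here. This table had 16381 probes, no value was missing (0), and 0 pairs of arrays were identical. Another table of raw signals and detection p-values was not used, since its 24 columns could not be given to samples. Of the probes, 9756 had 1 gene symbol in the platform annotation, 4 had several and 6621 had none, and none was named from several. All 16 member probes matched RefSeq gene IDs.

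Group means were fitted with limma 3.58.1 in R 4.3.3 over all 12 arrays (9 residual and 12.1 prior degrees of freedom), with two-sided p-values adjusted by Benjamini-Hochberg across the whole table. The fit was tested on simulated data. The members, the lists and the rule for named genes (all members, called genes of each list, and the 3 probes most like the member with the largest change) were chosen with earlier results of these data known. Alternatives left out each array, changed the centring, normalization, variance model, weights, groups or probe choice, or used the replicate number as a block. The number of arrays limits the precision.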

Additional observations from a re-analysis of the deposited data

Results flagged for a closer look

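Among 84 groups of 4 arrays examined for the named probes, 3 held an array far from the others of its group. Chance gives about 1 in 20 where groups are independent. Probes of the same gene and values of the same array are not, and the list genes examined were those called. The count was therefore not tested against chance. BNIP3 was at 7.39 in siLRH-1 #2 replicate 2, where the other 3 arrays of the group lay between 6.39 and 6.48. EGLN3 was at 6.30 in siLRH-1 #1 replicate 2, where the group's other arrays lay at 6.42 to 6.44. JMJD6 was at 7.60 in siLRH-1 #1 replicate 4, below 7.82 to 7.85.

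Differences between the LRH-1 siRNAs, siLRH-1 #1 minus siLRH-1 #2 in limma, were called for 10 probes, counting every member probe and the brightest probe of each other gene. These came from 16 member probes and 49 other genes. Of all named genes, 14.7% were called in this comparison, so the count was near the background. The differences were 0.41 and 0.25 for the HK2 probes and 0.26 for EGLN3. Among other genes of the pathway they were 0.22 for PFKP, 0.45 for EPAS1, -0.33 for ENO2, -0.77 for HIF1A, -0.71 for EGLN2, -0.42 for KDM3A and -0.38 for DDIT3. The other probes of HIF1A (-0.79 and -0.42) and EGLN2 (-0.66) were called as well. HIF1A, EGLN2 and KDM3A were also called lower with siLRH-1 #1 against siLUC, EPAS1 lower with siLRH-1 #2, and ENO2 and DDIT3 higher with siLRH-1 #2.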

How the results depend on the processing

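Over 22 alternatives, 1744 of 1809 values of the named probes kept their side of the threshold, 44 lost a call and 21 gained one. The sign changed in 44 values, of which 0 were called in either setting. Leaving out each array in turn gave 1 to 2 members called with siLRH-1 #1, 1 to 3 with siLRH-1 #2, 2 between the siRNAs, and 1 to 2 called with both. Relative to GAPDH, 1 member was called with siLRH-1 #1 (DDIT4), 2 with siLRH-1 #2 (HK2 and DDIT4), 1 between the siRNAs (HK2) and 1 with both siRNAs (DDIT4). The HK2 call with siLRH-1 #2 was gained in this setting (adjusted p = 0.0395). This setting moved the median of all probes by -0.07 with each siRNA and gave 564 probes called with siLRH-1 #1 and 563 with siLRH-1 #2, against 1146 each as reported, and 723 between the siRNAs, against 1629. Without siLRH-1 #1 replicate 4, 700 probes were called with siLRH-1 #1. When the spread was not moderated, 1 member was called with each siRNA and with both (ADM). Among brighter probes, 1 differed between the siRNAs (HK2), since the dim EGLN3 probe was left out by construction. With the replicate number as a block, 2 members were called with siLRH-1 #1, 3 with siLRH-1 #2 and 2 between the siRNAs, since the HK2 call with siLRH-1 #2 was gained (adjusted p = 0.0492), and BHLHE40 lost its call with siLRH-1 #2 (adjusted p = 0.0570). Deviations of same-numbered arrays correlated at -0.15 to 0.20, so the numbers were not taken as pairs. A start from raw signals was not run because their columns could not be given to samples. Apart from brighter probes, the causes were not tested. Dim probes, among them EGLN3, BNIP3, ENO2, PFKP, ARNT and DEPTOR, limit what a missing call says. The list counts without siLRH-1 #2 replicate 2 were chosen after seeing the data. Hypoxia-induced genes called higher then numbered 3 with siLRH-1 #1, against 2, and 1 with siLRH-1 #2, against 2, and those of all lists 4 with siLRH-1 #1, against 3, and 3 with siLRH-1 #2, against 4.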
